A study of Homo sapiens with 8 samples.

Results

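SLIT2, SPEN, PRRC2B, SRCAP, XRCC5, SNX5, PHYKPL and RCC1 are 8 of the 19974 protein-coding genes annotated on human chromosomes 1 to 22 and X, chosen by the length that peaks of opened DNA covered in untreated cells. The measure was the number of bases of a gene that lie inside a peak, here called its covered length. By its mean in the controls, SLIT2 ranked 1, SPEN 3, PRRC2B 6, SNX5 9, SRCAP 11, PHYKPL 12, XRCC5 13 and RCC1 20. The top 20 therefore held 12 genes that are not among the 8, such as HNRNPC, RBM39, NPM1, PCBP2, DHX9, HOXA3, MATR3, SF3B3, EIF3A, KPNB1 and RBM14-RBM4. RCC1 was the last inside with a mean of 13626 bp, and genes just outside included AMOT with 13208.5 bp, SRSF1 with 13159.5 bp and NUCKS1 with 12939.5 bp. Because control values chose the genes, the difference between conditions is described here without a test.

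HEK293T, a long-established line from human embryonic kidney, was grown in high glucose DMEM with serum. Control cells received no vitamin C, and treated cells received 0.5 mM vitamin C (ascorbic acid) in the medium for 10 min. Both were then labelled for 10 min with 5 mM N3-kethoxal, and each condition had 2 labelled libraries. The titles name HEK293T for each sample, whereas the number in the cell line field differs from sample to sample, and the labels do not say whether replicates were separate cultures. The 4 unlabelled input libraries were not analysed here.

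The assay was KAS-seq, which finds DNA whose strands have come apart inside the cell. N3-kethoxal tags guanines that are not base paired, as in the bubble of DNA that RNA polymerase opens while it transcribes, and the tagged fragments are enriched and sequenced. Signal near a gene start usually marks polymerase that has just begun or has paused, signal along the body marks elongating polymerase, and signal past the end marks polymerase that is terminating. A peak list gives no strand, so opened DNA of overlapping or neighbouring genes cannot be told apart, nor can a smaller share of open cells from a shorter open time.

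The genes differed in whether peaks reached their start sites, and the RefSeq promoter windows of GRCh38.p14, which run from 250 bases before to 50 bases after a start, show where. The table matched 7 of the 8 genes, and XRCC5 was not matched. The first RCC1 window and the SRCAP window are printed because peaks covered them in all 4 libraries. The second RCC1 window, SLIT2 and the second PRRC2B window were added after their values were seen, because a peak lay close by. Each is given 5′ to 3′ on the plus strand, and capitals mark the bases inside a peak in both controls.
RCC1 first start, chr1:28505793-28506092: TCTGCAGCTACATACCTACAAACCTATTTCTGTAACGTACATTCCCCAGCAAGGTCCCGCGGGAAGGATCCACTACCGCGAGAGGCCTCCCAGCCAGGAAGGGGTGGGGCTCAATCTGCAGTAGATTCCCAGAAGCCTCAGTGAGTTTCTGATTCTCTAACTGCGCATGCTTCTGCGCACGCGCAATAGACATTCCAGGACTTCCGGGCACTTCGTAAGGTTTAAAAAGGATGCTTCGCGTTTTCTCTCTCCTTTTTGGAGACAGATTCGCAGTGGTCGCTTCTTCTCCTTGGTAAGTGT
RCC1 second start, chr1:28517976-28518275: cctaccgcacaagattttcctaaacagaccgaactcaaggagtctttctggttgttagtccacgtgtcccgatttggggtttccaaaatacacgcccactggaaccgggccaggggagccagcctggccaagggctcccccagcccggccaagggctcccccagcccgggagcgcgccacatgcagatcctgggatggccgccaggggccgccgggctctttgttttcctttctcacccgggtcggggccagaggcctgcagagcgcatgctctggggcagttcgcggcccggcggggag
SRCAP, chr16:30698921-30699220: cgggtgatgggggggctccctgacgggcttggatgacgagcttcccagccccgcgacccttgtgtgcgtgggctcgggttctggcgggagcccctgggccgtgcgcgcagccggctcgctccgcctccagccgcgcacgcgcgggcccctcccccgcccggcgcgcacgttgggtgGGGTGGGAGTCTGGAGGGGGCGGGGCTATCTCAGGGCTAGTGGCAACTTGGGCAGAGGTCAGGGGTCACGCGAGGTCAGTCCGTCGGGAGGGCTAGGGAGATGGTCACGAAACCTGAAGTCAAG
SLIT2, chr4:20251655-20251954: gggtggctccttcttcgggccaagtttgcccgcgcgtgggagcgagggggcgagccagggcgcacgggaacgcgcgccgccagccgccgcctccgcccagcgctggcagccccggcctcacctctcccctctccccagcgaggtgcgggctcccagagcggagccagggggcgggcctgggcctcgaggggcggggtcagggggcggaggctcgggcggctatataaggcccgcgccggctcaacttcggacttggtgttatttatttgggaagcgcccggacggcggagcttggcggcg
PRRC2B second start, chr9:131393836-131394135: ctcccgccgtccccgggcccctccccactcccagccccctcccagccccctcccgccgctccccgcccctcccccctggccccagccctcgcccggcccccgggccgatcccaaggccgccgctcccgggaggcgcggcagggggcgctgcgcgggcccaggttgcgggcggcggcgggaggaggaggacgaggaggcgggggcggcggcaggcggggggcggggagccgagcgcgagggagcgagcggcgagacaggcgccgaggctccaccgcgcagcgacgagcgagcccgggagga

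The first RCC1 window lay wholly inside a peak in each library, and in SRCAP peaks covered 134 and 124 of the 300 bases in the controls, against 51 and 36 with vitamin C. For the second RCC1 window, 38 bases were covered in control replicate 1, and the other libraries had no peak there. No peak touched the other 7 windows of the matched genes in any library. G and C made up 51.7% of the first RCC1 window and 65.3% of the second, 72.0% of the SRCAP window, 74.3% of SLIT2, 77.0% of SPEN, 83.7% of the second PRRC2B window and 63.0% of its first. The median over 34961 windows was 58.7%, with quartiles of 47.0% and 68.0%. The motif GGGCGG, searched on both strands, occurred 5 times in the SLIT2 window, 4 times in the second PRRC2B window, 2 times in SRCAP and in no RCC1 window, and 45.03% of all windows hold it. TATAAA on either strand was in none of the windows of the 7 matched genes and in 11.5% of all windows. The search was for the exact motif, and the SLIT2 window holds the similar TATATAAG.

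The 8 genes together lost most of their covered length in the vitamin C libraries. Peaks covered 184790 and 159789 bp of them in control replicates 1 and 2, against 71849 and 64666 bp in vitamin C replicates 1 and 2, a log2 ratio of the group means of -1.34. They held 283 and 245 peaks in the controls, against 120 and 108 with vitamin C, a log2 ratio of -1.21. The median peak was 406 and 430 bp wide in the controls and 378.5 and 357 bp wide with vitamin C. In each of these measures the vitamin C libraries lay below both controls.

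Covered length was below both controls in both vitamin C libraries for each gene taken alone, 8 of 8, where 88.8% of the 6045 protein-coding genes with a peak in both controls did the same and 0.0331% did the opposite. Among the 1307 genes with a control mean of at least 2000 bp, 97.8% did. No vitamin C peak was left in 1778 of the 6045 genes. The median gene kept 22.2% of its control mean, with quartiles of 0% and 42.5%, and the median of the 1307 longer-covered genes was 30.6%, with quartiles of 19.8% and 45.3%. The 8 genes kept between 20.1% and 87.4%. As a share of all bases that peaks covered in a library, they took 1.18% and 1.24% in the controls, against 1.46% and 1.37% with vitamin C.

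**Figure D1:**
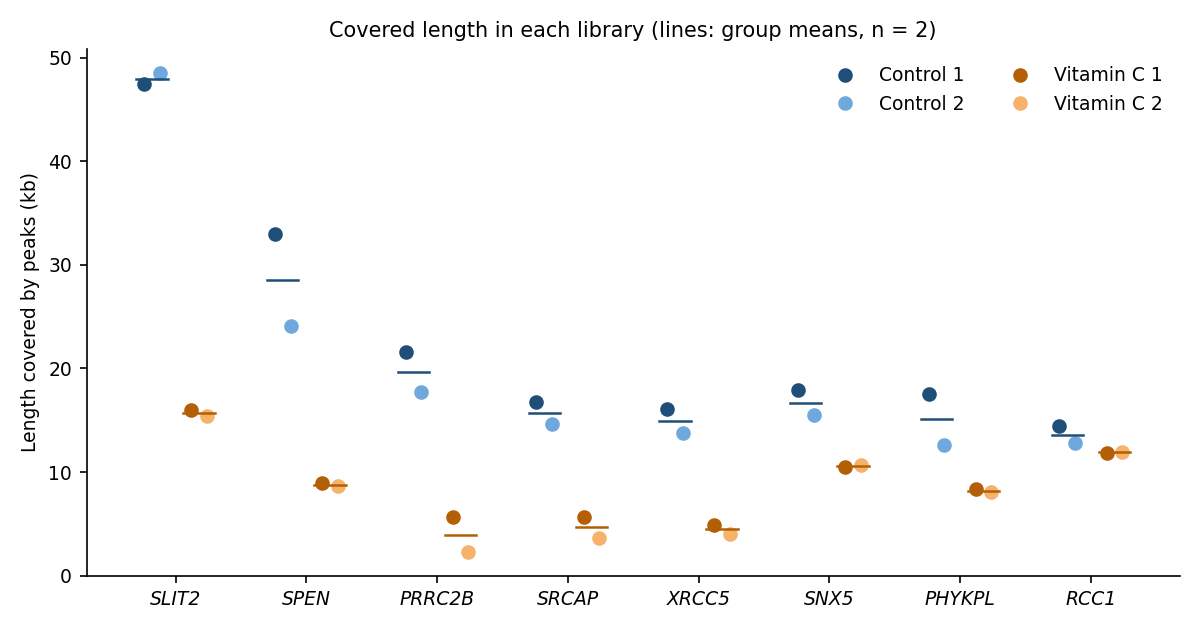
Length of each gene covered by peaks (kb, linear axis from 0) in the 2 control and 2 vitamin C libraries, with lines at the group means. In each gene both vitamin C points lie below both control points, with the widest separation in SLIT2 and the narrowest in RCC1.

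**Figure D2:**
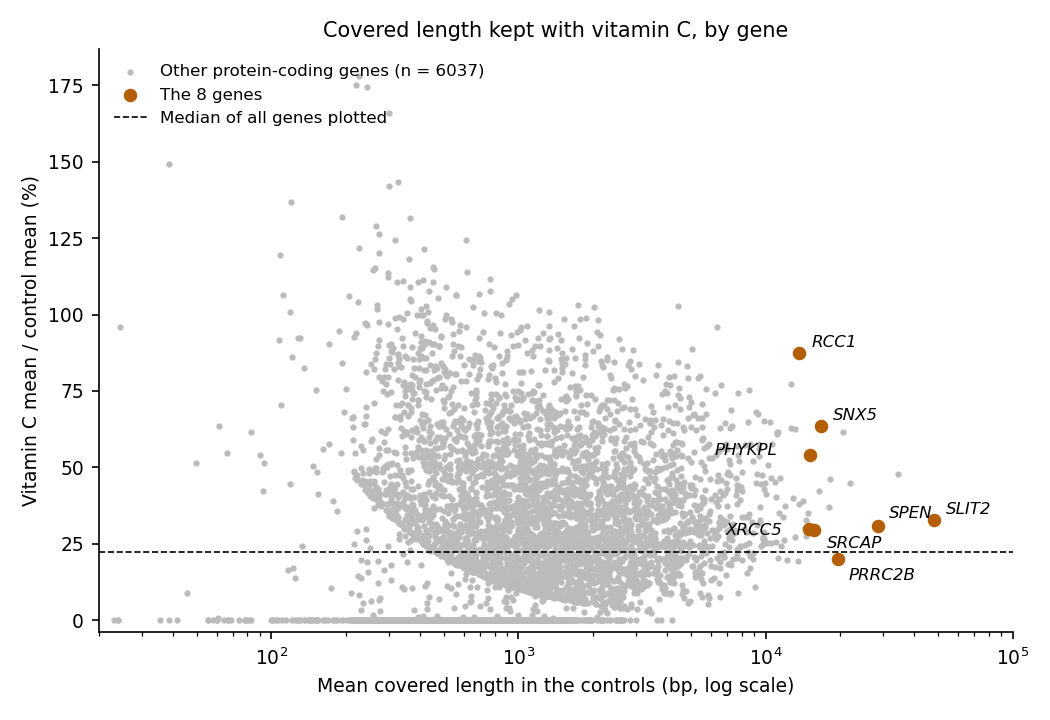
Mean covered length in the controls (bp, log scale) against the percentage of it kept in the vitamin C mean, for 6045 protein-coding genes with a peak in both controls. The 8 genes lie at the right edge, from PRRC2B at 20.1% to RCC1 at 87.4%, and the dashed line is the median of 22.2%.

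The lists themselves differed in length, with 30351 and 24111 peaks in the controls, against 9816 and 9896 with vitamin C on these chromosomes. As a guide to depth, fold and p of randomly sampled peaks were solved for the background at the summit, in units of labelled fragments. The sources used here do not say whether that background came from labelled or input reads. Its most frequent value was 0.817 and 0.849 in control replicates 1 and 2, and 1.22 and 0.871 in vitamin C replicates 1 and 2. With every list shortened to 9816 peaks, those with the lowest q, the log2 ratio of the 8 genes was -0.64 for covered length and 0.0064 for peak number. SLIT2 then stood at -0.59, SPEN at -0.81, PRRC2B at -1.26 and XRCC5 at -0.89. SRCAP stood at -1.24, PHYKPL at -0.68, SNX5 at -0.28 and RCC1 at -0.052. All 4 marker genes active in most cell lines had a peak in each library. Of 6 genes reported in HEK293T for kidney or neural character, only VIM had one in any library, and KRT8, KRT18, PAX2, NEFL and NEFM had none. Of 8 genes of other lineages, TTN and ALB had a peak in 1 library each.

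SLIT2 (chr4:20251905-20620561, plus strand) encodes a secreted guidance protein that repels axons and migrating cells through ROBO receptors. Peaks covered 47448 and 48508 bp of the gene in the controls and 15954 and 15445 bp with vitamin C. The totals of replicates lay close together and the groups far apart, with means of 47978 ± 749.5 bp and 15699.5 ± 360 bp (SD, n = 2 each). SLIT2 kept 32.7%, a log2 ratio of -1.61. In the controls the covered length amounted to 13.0% of a gene of 368657 bp.

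The SLIT2 coverage was made of many short peaks and not of a few long stretches. The gene held 104 and 91 peaks in the controls, against 40 and 37 with vitamin C. Their median width was 360.5 and 414 bp in the controls and 304.5 and 351 bp with vitamin C. Peaks of at least 1000 bp carried 16.3% and 25.6% of the covered length in the controls, against 10.5% and 0% with vitamin C. The typical gap between neighbouring SLIT2 peaks was 1681 and 1828 bp in the controls and 4035 and 3781 bp with vitamin C. Fold over background, the authors' value for each peak, had a median of 6.61 and 6.16 in the controls, against 6.32 and 6.41 with vitamin C.

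The first SLIT2 peak began 727 and 782 bp past the annotated start in the controls and 905 and 920 bp past it with vitamin C, downstream of the promoter window printed above. Of 10 bins of equal length along the gene, the first held 25.5%, 24.6%, 26.1% and 23.1% of the covered length in control 1, control 2, vitamin C 1 and vitamin C 2, and bins 1 to 5 held 76.4%, 77.8%, 78.2% and 86.0%. These shares were near one another in all 4 libraries, while the far end differed. The last peak ended 271294 and 271382 bp from the start with vitamin C. Past that point each control held 8 more peaks, which covered 2687 and 2280 bp, and the last ended at 367231 and 334974 bp. Only those beginning at 281919 and 331232 bp in control replicate 1, and at 281926 and 331274 bp in replicate 2, overlapped between the controls. The last peak of each control was in that control alone, with 7 fragments at its summit. The strongest SLIT2 peak of both controls sat at the last vitamin C peak, with summits 271151 and 271104 bp from the start and folds of 15.6 and 16.1.

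Overlapping control peaks were joined into regions, and SLIT2 had 65 regions found in both controls. Both vitamin C libraries had a peak at 19 of them, a single vitamin C library at 21 and neither at 25. The fold of the best peak, averaged over the controls, had a median of 7.72 where both libraries met them and 5.72 where neither did, and their median width was 842 and 445 bp. Of the bases covered in both controls, 40.6% and 37.6% were covered in vitamin C replicates 1 and 2. Replicates also differed in position: of the SLIT2 bases covered in either control, 44.5% were covered in both. For the vitamin C libraries this was 31.6%. Only 3 of 40 and 3 of 37 vitamin C peaks lay outside any control peak. MIR218-1, a microRNA hairpin within SLIT2, was touched by a peak over 9 of its 110 bp in control replicate 2 and in no other library.

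**Figure D3:**
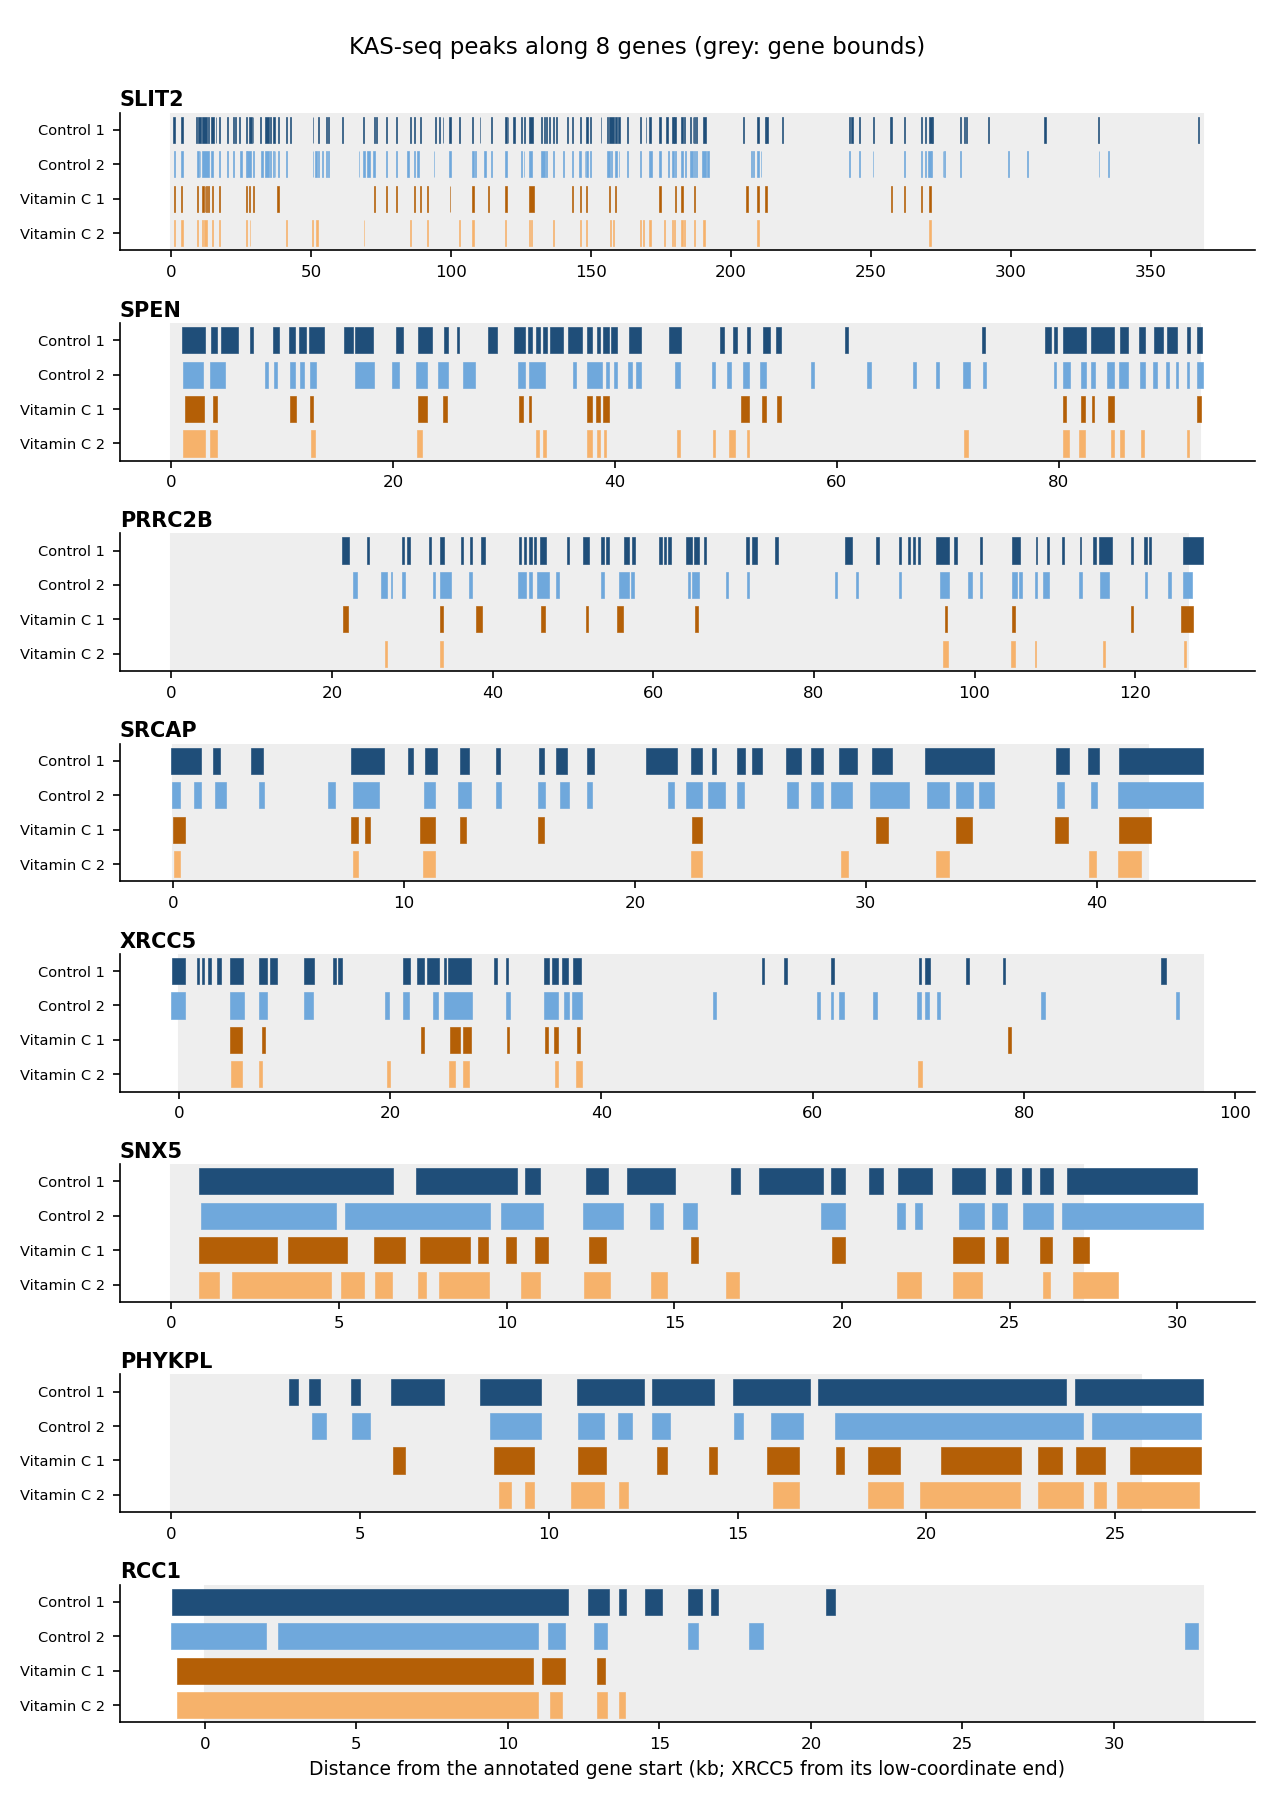
Peaks in the 4 labelled libraries along each gene, by distance from the annotated start (kb, XRCC5 from its low-coordinate end), with gene bounds in grey. SLIT2, PRRC2B and XRCC5 show many narrow bars that thin out with vitamin C, and RCC1 shows a long block at its start in each library, split in control replicate 2.

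SPEN (chr1:15847707-15940456, plus strand) encodes a large RNA-binding protein that recruits corepressors to silence transcription. Its covered length was 32950 and 24131 bp in the controls and 8913 and 8614 bp with vitamin C. Control replicate 1 was well above replicate 2, both vitamin C libraries were below either, and the means were 28540.5 ± 6236 and 8763.5 ± 211 bp (SD, n = 2 each). SPEN kept 30.7%, a log2 ratio of -1.70, and its peaks fell in number from 44 and 43 to 19 and 20.

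A wide SPEN peak just past the start was present in each library. It spanned 2108 and 1835 bp in the controls and 1741 and 1996 bp with vitamin C, beginning between 938 and 1206 bp from the start, with summits between 1602 and 1611 bp. Its fold was 13.4 and 18.4 in the controls, against 12.5 and 14.4 with vitamin C, so that the groups overlapped in fold and in width. In the first bin of SPEN, coverage was 4544 and 3439 bp in the controls and 2144 and 2667 bp with vitamin C. As a share of the gene's coverage this was 13.8% and 14.3%, against 24.1% and 31.0% with vitamin C. Over the last bin, coverage was 5054 and 3086 bp in the controls and 731 and 1155 bp with vitamin C. The share of the last bin overlapped between the groups, with 15.3% and 12.8% against 8.20% and 13.4%. Of 30 SPEN regions found in both controls, 10 were met in both vitamin C libraries and 11 in neither, and no vitamin C peak lay outside the control peaks.

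SRCAP (chr16:30699171-30741409, plus strand) encodes the ATPase of the complex that exchanges H2A.Z into nucleosomes. Peaks covered 16760 and 14639 bp of it in the controls and 5708 and 3598 bp with vitamin C. The groups did not overlap, and the means were 15699.5 ± 1499.8 and 4653 ± 1492 bp (SD, n = 2 each), 29.6% kept and a log2 ratio of -1.75. In the controls 37.2% of the gene was covered, by 24 and 26 peaks, and 11 and 8 peaks were left with vitamin C.

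Both ends of SRCAP kept a peak. The first peak began 84 and 74 bp before the start in the controls, 1 bp before it in vitamin C replicate 1 and 14 bp past it in replicate 2, which is the stretch in capitals above. At the other end a single peak of 3630 and 3679 bp in the controls ran past the SRCAP end into TMEM265, with folds of 18.9 and 18.6. The vitamin C peak there was 1405 bp wide with a fold of 14.0 in replicate 1 and 995 bp wide with a fold of 5.80 in replicate 2. Counting all peaks in the bounds of the 3630 bp control peak, vitamin C replicates covered 1950 and 1600 bp of it. The last bin of SRCAP held 2265 and 1880 bp in the controls, against 1841 and 1298 bp with vitamin C. It took 13.5% and 12.8% of the gene's coverage in the controls, against 32.3% and 36.1% with vitamin C. Of 22 regions found in both controls, 6 were met in both vitamin C libraries and 10 in neither.

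XRCC5 (chr2:216109348-216206293) encodes a subunit of the Ku dimer that holds broken DNA ends for joining. The covered length was 16129 and 13800 bp in the controls and 4918 and 4045 bp with vitamin C. Both vitamin C values lay below both controls, and the means were 14964.5 ± 1647 and 4481.5 ± 617 bp (SD, n = 2 each), 29.9% kept and a log2 ratio of -1.74. Peaks numbered 30 and 22 in the controls, against 10 and 8 with vitamin C.

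The tables used here give no strand for XRCC5, so its peaks were placed from the low-coordinate end. A peak that crossed this end, from 635 bp outside to 543 bp inside in control replicate 1 and from 708 to 558 bp in replicate 2, had no counterpart with vitamin C, where the first peak began at 4889 and 4890 bp. That next peak was in all 4 libraries and was the strongest XRCC5 peak of both vitamin C libraries, with folds of 10.96 and 8.79. Bins 1 to 5 of XRCC5, counted from that end, held 83.7% and 77.5% of its coverage in the controls, against 94.9% and 92.3% with vitamin C. No library had a peak in bin 5. Of 14 XRCC5 regions found in both controls, 5 were met by both vitamin C libraries, 2 by 1 of them and 7 by neither.

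PRRC2B (chr9:131373651-131500193, plus strand) encodes a proline-rich RNA-binding protein linked to translation. Its covered length was 21612 and 17725 bp in the controls, 5629 bp in vitamin C replicate 1 and 2264 bp in replicate 2. Here the vitamin C replicates stood far apart, though both were below the controls, and the means were 19668.5 ± 2749 and 3946.5 ± 2379 bp (SD, n = 2 each). PRRC2B kept 20.1%, the least of the 8 genes, a log2 ratio of -2.32 that became -3.12 without vitamin C replicate 1. Peaks numbered 49 and 33 in the controls, against 11 and 7 with vitamin C.

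No library had a peak in the first bin of PRRC2B. The gene has a second annotated start 20435 bp in, and its peaks began 869 and 2208 bp past that start in the controls and 892 and 6161 bp past it with vitamin C. The window printed for the second start was free of peaks. At the gene end, control replicate 1 had its strongest PRRC2B peak, 2464 bp wide with a fold of 14.9, and vitamin C replicate 1 had a peak of 1506 bp with a fold of 14.1. The peak there was 1130 bp wide with a fold of 6.70 in control replicate 2 and 264 bp wide with a fold of 7.14 in vitamin C replicate 2, so that the groups overlapped in width and fold. Of 22 PRRC2B regions found in both controls, 4 were met in both vitamin C libraries and 13 in neither. Of the bases covered in both controls, 26.4% and 20.6% were covered with vitamin C, the lowest shares among the 8 genes. Replicates of PRRC2B also shared the least: of bases covered in either library, 31.1% were in both controls and 17.6% in both vitamin C libraries.

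**Figure D4:**
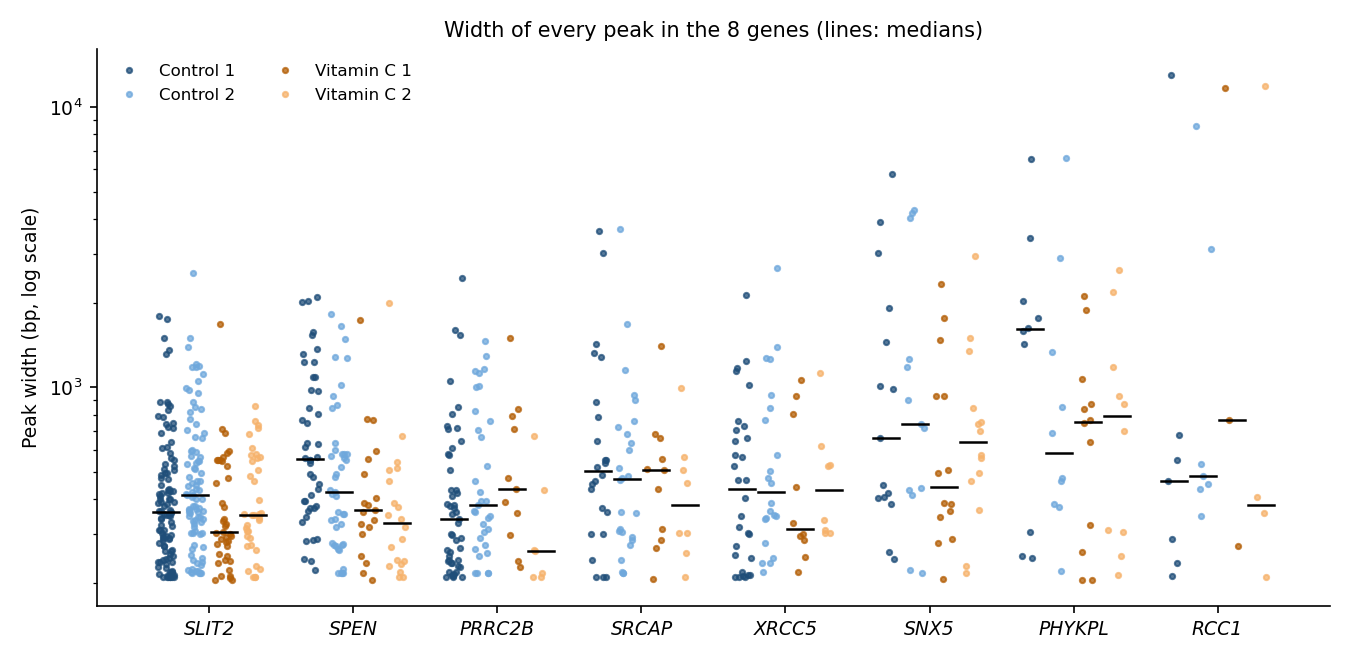
Width of every peak (bp, log scale) in each gene and library, with lines at the medians. Most SLIT2, SPEN, PRRC2B, SRCAP and XRCC5 peaks are under 1000 bp wide, whereas RCC1 has 1 peak of 13077, 8580, 11754 and 11924 bp in control 1, control 2, vitamin C 1 and vitamin C 2.

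The remaining genes, SNX5, PHYKPL and RCC1, were covered by long stretches in the sense of single wide peaks. In the controls, peaks of at least 1000 bp carried 76.5% and 73.6% of the covered length in SNX5, 95.4% and 72.6% in PHYKPL, and 83.1% and 82.5% in RCC1. With the full lists they were also the ones that kept the most covered length. With lists of equal length, SLIT2 at a log2 ratio of -0.59 stood above PHYKPL at -0.68. In the full lists the number of peaks in SNX5 and PHYKPL was nearly the same in both conditions. SNX5, PHYKPL and RCC1 each overlap another annotated gene that peaks cover in both controls. Of the control coverage, SNHG3 held 33.7% and 34.7% in RCC1, HNRNPAB 21.5% and 29.8% in PHYKPL, and SNORD17 1.32% and 1.53% in SNX5. Peaks of both controls also covered TMEM265 within SRCAP and part of the pseudogene LOC124902290 within PRRC2B. These held 4.58% and 5.25% of the SRCAP coverage and 2.29% and 2.76% of the PRRC2B coverage. SRCAP and PRRC2B kept 29.6% and 20.1%. Whether such overlap bears on the length kept was not tested.

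SNX5 (chr20:17941600-17968794, minus strand) encodes a sorting nexin that shapes endosomal membranes for retrieval of cargo. Peaks covered 17911 and 15473 bp in the controls and 10528 and 10701 bp with vitamin C. The groups did not overlap, with means of 16692 ± 1724 and 10614.5 ± 122 bp (SD, n = 2 each), 63.6% kept and a log2 ratio of -0.65. SNX5 had 15 and 13 peaks in the controls and 14 in both vitamin C libraries. Their median width was 659 and 743 bp in the controls and 441.5 and 638 bp with vitamin C. The widest was 5799 and 4305 bp in the controls and 2337 and 2940 bp with vitamin C. Similar counts do not mean the same peaks, since vitamin C replicates 1 and 2 had 3 and 4 peaks within the 5799 bp peak.

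The first SNX5 peak began 822, 881, 821 and 837 bp from the start in control 1, control 2, vitamin C 1 and vitamin C 2. The widest control peaks ran over SNORD17, a small nucleolar RNA hosted by SNX5, which was covered over all of its 237 bp in both controls, over 42 bp in vitamin C replicate 1 and not in replicate 2. The strongest control peak crossed the far end of the gene and was 3900 and 4201 bp wide, with folds of 28.6 and 29.7 and its summit 28655 and 28755 bp from the start, outside the gene. Within the bounds of the 3900 bp peak, 3 vitamin C peaks per library covered 2570 and 2767 bp. Each of 9 SNX5 regions found in both controls was met in at least 1 vitamin C library, and 5 were met in both.

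PHYKPL (chr5:178207144-178232822, minus strand) encodes phosphohydroxylysine phospholyase, a mitochondrial enzyme of lysine breakdown. Its covered length was 17579 and 12662 bp in the controls and 8343 and 8038 bp with vitamin C. The controls differed from each other by more than the vitamin C libraries did, the groups did not overlap, and the means were 15120.5 ± 3477 and 8190.5 ± 216 bp (SD, n = 2 each). PHYKPL kept 54.2%, a log2 ratio of -0.88, with 10 peaks in each control and 12 and 10 with vitamin C.

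No peak lay in the first bin of PHYKPL in any library, and the first began 3108 and 3725 bp from the start in the controls and 5870 and 8683 bp with vitamin C. Coverage grew towards the far end, where the gene overlaps HNRNPAB (chr5:178204533-178211163), which encodes an RNA-binding protein of nuclear ribonucleoproteins and is read on the other strand. The overlap of 4020 bp was covered over 3788 and 3771 bp in the controls and over 2559 and 2936 bp with vitamin C. It made up 21.5% and 29.8% of the PHYKPL coverage in the controls, against 30.7% and 36.5% with vitamin C. The part of HNRNPAB in the PHYKPL values, within the overlap or past it, cannot be told apart without strand. The widest control peak, 6560 and 6576 bp, ran across the HNRNPAB end into the rest of PHYKPL. It was broken up with vitamin C, where 4 and 3 peaks covered 3812 and 4305 bp of the 6560 bp.

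RCC1 (chr1:28506043-28538989, plus strand) encodes the chromatin-bound exchange factor that loads the GTPase Ran with GTP. Peaks covered 14401 and 12851 bp in the controls and 11856 and 11961 bp with vitamin C. The vitamin C values lay just under the lower control, and the means were 13626 ± 1096 and 11908.5 ± 74.2 bp (SD, n = 2 each). RCC1 kept 87.4%, the most of the 8 genes, a log2 ratio of -0.19. Of the 1307 genes with at least 2000 bp in the controls, 11 kept a larger share. By mean covered length with vitamin C, RCC1 ranked 4 among protein-coding genes, from 20 in the controls.

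A single block made up most of the RCC1 coverage. It was one peak of 13077 bp in control replicate 1, 11754 bp in vitamin C replicate 1 and 11924 bp in replicate 2. In control replicate 2 it was split into peaks of 3127 and 8580 bp. It began 1106 and 1111 bp before the first start in the controls and 939 and 937 bp before it with vitamin C, so that the whole first window printed above lies inside it. Vitamin C peaks covered 12522 and 12332 bp of the 13077 bp. Of the RCC1 bases covered in both controls, 94.2% and 95.2% were covered with vitamin C.

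The RCC1 block lies over SNHG3 (chr1:28505943-28510892), a long noncoding RNA that hosts small nucleolar RNAs. The part of SNHG3 within RCC1 held 33.7% and 34.7% of the RCC1 coverage in the controls, against 40.9% and 40.5% with vitamin C. The small nucleolar RNAs SNORA73A and SNORA73B were covered over their full 207 and 205 bp in all 4 libraries. The strongest peak of the block had a fold of 21.9 and 49.97 in the controls, against 26.4 and 27.2 with vitamin C. Its summit had 106, 111, 101 and 83 fragments in control 1, control 2, vitamin C 1 and vitamin C 2. The local background, expressed in the same units, was 3.89, 1.24, 2.58 and 2.08. The fold of control replicate 2 thus stood apart at a similar number of fragments and a lower background. Past the block, the second RCC1 start lies 12183 bp in, and small peaks followed it, which reached 20803 and 32774 bp in the controls and 13218 and 13860 bp with vitamin C.

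**Figure D5:**
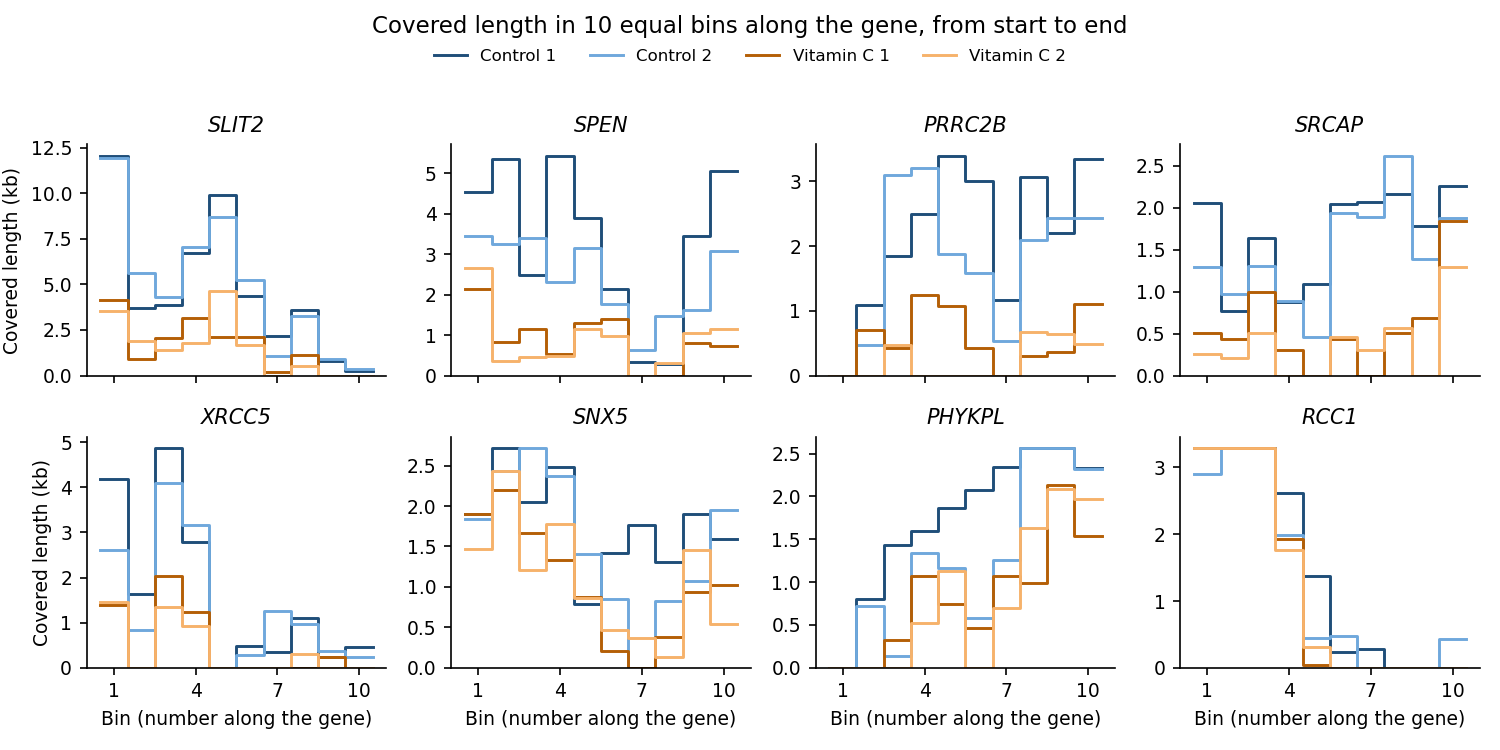
Covered length (kb) in 10 bins of equal length along each gene, from start to end (XRCC5 from its low-coordinate end), with one line per library. SLIT2 and XRCC5 are covered mostly in bins 1 to 5, PHYKPL mostly towards its end, PRRC2B not at all in its first bin, and the first 3 bins of RCC1 are filled in all 4 libraries apart from a gap in control replicate 2.

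Over the 8 genes, 172 regions were found in both controls. Both vitamin C libraries met 55 of them, or 32.0%, a single one met 48, and 69 were met by neither. Over chromosomes 1 to 22 and X there were 15176 such regions, of which 33.1% were met in both. In SLIT2, SPEN, PRRC2B, SRCAP, XRCC5, PHYKPL and RCC1 the regions met in both had a higher median control fold and a larger median width than those met in neither, for example 10.9 against 6.0 and 1355 against 410 bp in PRRC2B. SNX5 had no region met in neither. Since an overlap of 1 bp counts, a wider region is more easily met, so part of this difference is built in. RCC1 compares 2 regions with 1, and PHYKPL 4 with 2.

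Genes of the same pathways and families were read in the same way, and since the 8 were picked for long coverage, a shorter covered length in the others follows from that choice. Of 9 SLIT and ROBO signalling genes, 4 had a peak in both controls and all 4 had less with vitamin C. ROBO1, a receptor of SLIT2, had 4875 and 3174 bp in the controls and 1093 and 704 bp with vitamin C, and SRGAP2, which acts below the receptors, had 559 and 660 bp and then 0 and 271 bp. ROBO2 and SRGAP3 had no vitamin C peak, and the ligand genes SLIT1 and SLIT3 had no peak in any library.

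Of 6 SPEN relatives and corepressors, all had a peak in both controls, 5 were lower with vitamin C and 3 had no vitamin C peak, as did 1778 of all 6045 such genes. NCOR1, a corepressor scaffold, went from 3111 and 2082 bp to none. HDAC3, the deacetylase that binds this scaffold, went from 628 and 990 bp to none, and RBM15B, which shares domains with SPEN, had 3776 and 3011 bp and then 1803 and 1515 bp. Both PRRC2B paralogs were lower, PRRC2C from 5828 and 3409 bp to 1575 and 1185 bp and PRRC2A from 1151 and 1340 bp to 539 and 583 bp.

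In the list of SRCAP complex and INO80 family genes, 7 of 10 had a peak in both controls and 6 of them were lower. RUVBL1, an ATPase shared by these complexes, had 3488 and 2473 bp in the controls and 585 and 211 bp with vitamin C. DMAP1 had 1934 and 1697 bp and then 1167 and 469 bp, and INO80 had no vitamin C peak. For end joining, 4 of 7 genes had a peak in both controls and all 4 were lower. XRCC6, which encodes the partner of XRCC5 in Ku, had 12641 and 11873 bp in the controls and 2955 and 1907 bp with vitamin C. PRKDC, the kinase that Ku recruits, had 9551 and 10187 bp and then 2402 and 2867 bp, and LIG4, the ligase, went from 415 and 270 bp to none.

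Of 6 sorting nexin and retromer genes, SNX6 and VPS29 had a peak in both controls and were lower with vitamin C. SNX6 went from 1535 and 912 bp to none, and VPS29 had 1344 and 438 bp and then 0 and 109 bp. Neither AGXT2 nor ETNPPL, which encode enzymes related to PHYKPL, had a peak in any library. All 7 genes of the Ran cycle had a peak in both controls and were lower with vitamin C. KPNB1, an import receptor, had 15952 and 12868 bp in the controls and 3074 and 5593 bp with vitamin C, and RANGAP1, which activates GTP hydrolysis by Ran, had 6848 and 6840 bp and then 2291 and 1124 bp. Over these lists, the genes with a peak in both controls that were lower are to be read beside the 88.8% of all such genes.

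Among all protein-coding genes with a peak in both controls, the covered length most like that of SLIT2 over the 4 libraries was found in HNRNPC, SPEN and NPM1, by Euclidean distance of log2 covered length with 1 bp added. The distances were 0.74, 1.65 and 1.79. HNRNPC had 38127 and 30879 bp in the controls and 16025 and 17052 bp with vitamin C, and NPM1 had 21051 and 20037 bp and then 12734 and 12561 bp. By the vitamin C mean, HNRNPC stood above SLIT2, which ranked 2.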

How the data were processed

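Of 8 samples in the series, the 4 labelled libraries were used (2 control, 2 vitamin C), each with its own deposited peak list. The submitters' processing notes name build hg38 and the tools MACS2 2.2.7.1, Bowtie2 2.4.5, deepTools, cutadapt, Trim Galore and bcl2fastq 2.19. Their order and settings were not given in the sources used here. The authors' lists give each peak's start, end and summit, its fold over background (a linear ratio), and −log10 p and −log10 q. The deposited fold belongs to its peak and describes peaks within a list. The highest q was 0.00999.

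Only peaks of chromosomes 1 to 22 and X entered, which left out between 4.23% and 5.06% of a list. Overlapping peaks were counted by base inside RefSeq gene bounds (GRCh38.p14, the same build). Orientation came from the promoter table. A region was a stretch of joined control peaks overlapped in both controls, and was met by an overlap of at least 1 bp. Read totals are not in the lists, so the fragments at summits and the background were solved from fold and p, with a tolerance of 0.005 in −log10 p. This worked for 100%, 100%, 99.1% and 100% of a random sample of peaks from each list, with vitamin C replicate 1 scaled by 0.776. Coverage and solving were tested on simulated data. Software was pandas 2.3.3, numpy 2.4.6, scipy 1.17.1 and matplotlib 3.10.9 under Python 3.11.15.

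No test was made between conditions. The genes were chosen on control values, and the smallest exact two-sided permutation p for 2 libraries against 2 is 0.333. The labels do not name cultures, so the SDs may reflect technical spread only. The genes and the pathway lists were chosen with earlier results of these data known. Named genes were the 8, the 4 just below them in control covered length, in each list the 2 of longest control coverage and the 2 longest without a vitamin C peak, the 3 nearest to SLIT2, and genes under the widest peaks. HNRNPAB, MIR218-1 and the other genes named outside this rule were chosen after their values were seen. A few results that fall under the rule are not reported here. Same-numbered replicates did not deviate together in covered length (r = -0.0048 over 6045 genes). That cannot show whether they were handled as pairs, which the labels do not say, and the libraries were treated as unpaired. Alternatives were a −log10 q of at least 5, a fold of at least 4, lists of equal length, bounds widened by 1 kb, whole peaks assigned by summit, joining of peaks under 500 bp apart, leaving out each library, and a replicate block.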

Additional observations from a re-analysis of the deposited data

How the results depend on the processing

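Under 11 alternatives, the log2 ratio of covered length stayed below 0 in each of the 8 genes, with RCC1 at the top of the order and PRRC2B at the bottom. For RCC1 it was only -0.052 with lists of equal length, less than its spread between replicates of 0.117. Lists shortened to 9816 peaks each gave a log2 ratio of -0.64 for covered length and 0.0064 for peak number, in place of -1.34 and -1.21. They also gave a median width difference of -224 bp (against -50.2 bp), a share of 67.6% (against 49.9%) of bases covered in both controls that vitamin C peaks cover, and 1958 lower genes of 3136 (against 5370 of 6045). Joining peaks under 500 bp apart gave -86.0 bp for the width. With the replicate block, pairing libraries by number, the share was 35.6%, covered length -1.33, peak number -1.21 and lower genes 5606. Leaving out 1 library at a time gave ranges of -1.44 to -1.23 for covered length, -1.31 to -1.10 for peak number, -62.2 to -38.2 bp for width, 33.6% to 51.5% for the share and 5652 to 7350 lower genes. With 1 control left, the share counts that control's bases, and the 7350 are of 7695 genes. The cause was not tested. The lists hold no read totals, 2 libraries per condition give a loose SD, and a base outside a peak may be open below the calling threshold.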
